A study of Homo sapiens with 6 samples.

Results

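PLEKHA5, EYA4, G2E3, ST7 and YTHDF3 are 5 plus-strand genes in which crosslink events recovered with an antibody against QKI-5 were followed along the transcript. They were chosen by the QKI-5 and control event counts themselves, because each held a pair of 10 kb windows called higher with the antibody, so the p-values and fold changes given for that contrast are the ones that chose the genes and support nothing further. The intervals, on hg19, were chr12:19282626-19529334 for PLEKHA5, chr6:133562495-133853258 for EYA4, chr14:31028363-31089248 for G2E3, chr7:116593292-116870077 for ST7 and chr8:64081112-64125345 for YTHDF3. They overlapped 96 of the 174732 strand-specific 10 kb windows that held any event. Of the 219 groups formed by joining higher windows less than 50 kb apart, 7 held more than 1 window, and 5 of those 7 lay in these genes.

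All 6 libraries came from BEAS2B, an established human bronchial epithelial cell line irradiated with UV light. For 3 libraries RNA was recovered with a self-made QKI-5 antibody, and the 3 control libraries had none. The labels give the same lysis, RNase A digestion and adapter ligation for both groups and do not say which of 2 RNase dilutions a library received. They name no separate cultures either, so the spread between replicates may be technical. QKI-5 libraries held 2143279 to 7283982 events and controls 29810 to 137926. Values are given as EPM, events per 1000000 events of the library. A floor of 3 events, used wherever a count was 0, equals 14.3 EPM over the pooled controls. Intervals are 95% exact (Clopper-Pearson) and, like the floor, cover counting error only. A fold against the floor leaves out the counting error of the QKI-5 events, and exact lower limits are smaller.

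QKI-5 is the nuclear isoform of Quaking, a STAR-family protein that binds RNA through a KH domain and regulates alternative splicing and circular RNA formation. Because it acts in the nucleus, it meets transcripts before their introns are removed. In iCLIP, reverse transcription stops next to the amino acid left at the crosslink, so the end of each cDNA marks a contact at nucleotide resolution. The genes have unrelated products. PLEKHA5 encodes a cytoplasmic adaptor with a pleckstrin homology domain, EYA4 a transcriptional coactivator and phosphatase of the eyes absent family, and G2E3 a ubiquitin ligase. ST7 encodes a membrane protein first studied as a candidate tumour suppressor, and YTHDF3 a cytoplasmic reader of methylated adenosine in mRNA.

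Events followed the annotated strand and began at the gene starts. Over the 5 genes the QKI-5 libraries held 35211 sense events and 29 antisense events, an antisense share of 0.0823%. Controls held 300 sense events and none antisense. G2E3 had no antisense event beside 5087 QKI-5 sense events, which by the floor of 3 events allows a share of up to 0.0590%, and ST7 had the most, 12 beside 8705 (0.138%, exact interval 0.0712 to 0.240). RefSeq on GRCh38.p14 lists noncoding RNAs overlapping these genes, among them EYA4-AS2, TARID, G2E3-AS1, ST7-AS1, ST7-AS2, ST7-OT3 and ST7-OT4. Whether they gave any of the events was not tested. In the 10 kb before each gene start, the 3 QKI-5 libraries together held 1 event at EYA4, 1 at ST7 and none at the other genes.

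Past the gene ends the genes differed. At PLEKHA5 the next 10 kb held 9, 2 and 4 events in QKI-5 replicates 1, 2 and 3, and at ST7 they held 0, 2 and 3. At EYA4 the same stretch held 240, 54 and 70 events, or 32.9, 25.2 and 24.2 EPM. Control replicate 3 had 2 events there, or 67.1 EPM, above all 3 QKI-5 libraries. At G2E3 it held 90, 23 and 39 events and at YTHDF3 82, 22 and 26. Control replicate 1 had 1 event past each of these genes, or 7.25 EPM, below each QKI-5 library. Control replicates 2 and 3 had none there, but 1 event in them equals 24.1 and 33.5 EPM. The control counts are too low to compare the groups past the gene ends. In GRCh38.p14 the gene SCFD1 begins within 10 kb of the end of G2E3. Which transcript gave these events was not tested.

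Per kb of gene, YTHDF3 carried the most QKI-5 events and PLEKHA5 the fewest. In QKI-5 replicates 1, 2 and 3, YTHDF3 had 9.86, 7.50 and 10.7 EPM per kb and G2E3 had 7.11, 5.79 and 6.71. EYA4 followed with 2.88, 2.49 and 2.28, ST7 with 2.74, 2.52 and 2.10, and PLEKHA5 with 2.31, 1.85 and 2.08. YTHDF3 lay above G2E3 and G2E3 above the other genes in every QKI-5 library, while the ranges of EYA4, ST7 and PLEKHA5 overlapped. The control means fell in the same order, at 5.98 ± 2.37, 2.63 ± 1.55, 1.79 ± 0.292, 1.12 ± 0.173 and 1.03 ± 0.324 EPM per kb (SD, n = 3), with more overlap between neighbours. The 2 genes with the most events per kb are also the 2 shortest, at 44.2 and 60.9 kb against 247 to 291 kb.

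**Figure D1:**
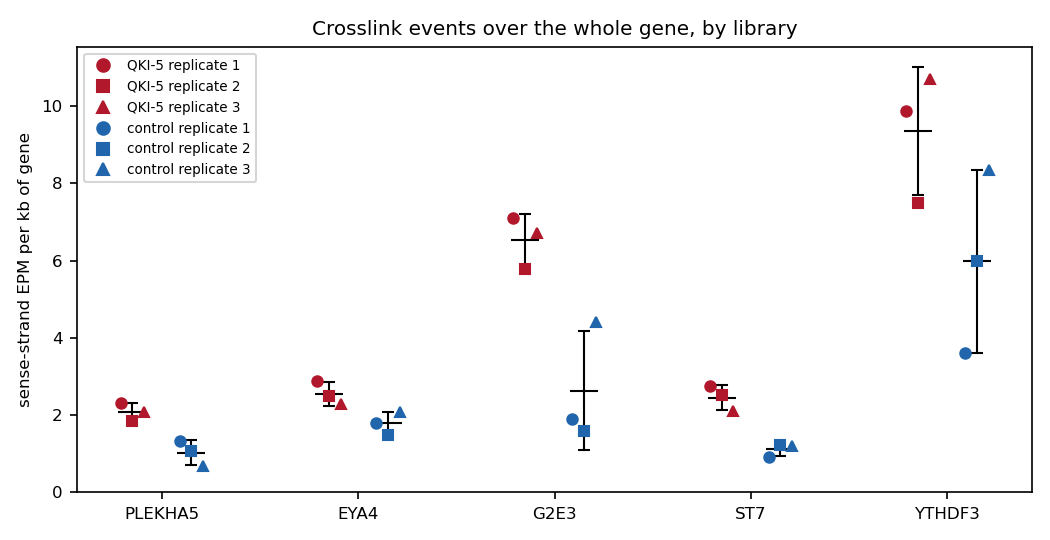
Sense-strand EPM per kb over each whole gene (vertical axis) for the 3 QKI-5 and 3 control libraries of each gene (points), with bars for the mean and SD. The QKI-5 points lie above all control points in every gene except YTHDF3, where control replicate 3 (8.34) exceeds QKI-5 replicate 2 (7.50).

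Over whole genes, which include the chosen windows, the QKI-5 mean exceeded the control mean in each of the 5. For PLEKHA5 the mean was 514 ± 55.9 EPM with the antibody against 253 ± 80.0 EPM without it (SD, n = 3 each), and their ratio 2.03. The ratio was 2.48 for G2E3 (398 ± 41.3 against 160 ± 94.1 EPM), 2.20 for ST7 (679 ± 90.2 against 309 ± 47.8 EPM), 1.56 for YTHDF3 (414 ± 73.3 against 265 ± 105 EPM) and 1.42 for EYA4 (740 ± 88.4 against 520 ± 84.9 EPM). These control values rest on 61, 28, 59, 44 and 108 events in PLEKHA5, G2E3, ST7, YTHDF3 and EYA4. The G2E3 ratio was 3.74 without control replicate 3 and 2.07 without control replicate 2. With each position counted once all 5 ratios were lower, at 1.65 for PLEKHA5, 1.65 for G2E3, 1.94 for ST7, 1.20 for EYA4 and 0.936, below 1, for YTHDF3. With events outside the 20 windows of the largest control share as denominator, the ratios were also lower. They were 1.78 for PLEKHA5, 2.22 for G2E3, 1.94 for ST7, 1.26 for EYA4 and 1.38 for YTHDF3. YTHDF3 held 2.33, 1.98 and 2.47 events per position in QKI-5 replicates 1, 2 and 3, where the whole libraries held 1.39, 1.72 and 1.75, and its control libraries held 1.05, 1.38 and 1.38.

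The edgeR quasi-likelihood fit over 29960 windows tested 76 of the 96 windows of these genes. Of these 10 were higher and 0 lower at an adjusted p under 0.05, 2 in each gene by choice, where 0.754% of all tested windows were higher. The values that follow include the 10 windows that chose the genes, and are descriptions only. The median log2 fold change of the 76 was 1.30, against 0.78 over all tested windows. With windows free of control events set to their bound against the floor, the medians were 1.02 and 0.62. Every QKI-5 value exceeded every control value in 26 of the 76 windows (34.2%), 8 of them among the 10, and in 23.7% of all tested windows. No control event fell in 8 of the 76 (10.5%) and in 7.43% of all. The 76 windows held a median of 330 QKI-5 events and all tested windows 205. Nearest to the threshold, the window of PLEKHA5 from 19310001 had an adjusted p of 0.0468 and that of ST7 from 116590001 one of 0.0709.

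**Figure D2:**
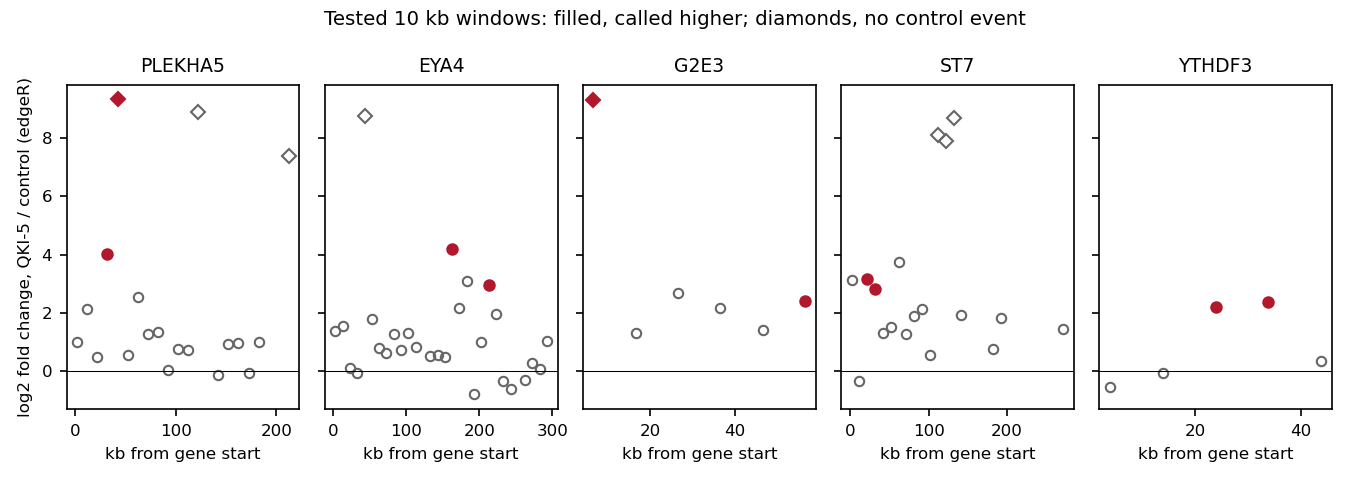
Log2 fold change of QKI-5 over control from edgeR (vertical axis) for the 76 tested windows, by the distance of the window's centre from the gene start in kb. Filled points are the 10 higher windows, and diamonds are the 8 windows without a control event, whose fold change is set by the prior count and is no measure of size.

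PLEKHA5 had neighbouring higher windows that were almost empty in controls. In QKI-5 replicates 1, 2 and 3 the window from 19310001 had 65.6, 48.5 and 45.0 EPM, with a single control event, in replicate 2, for a pooled ratio of 12.1 (interval 2.16 to 478). The window from 19320001 held 41.0, 33.6 and 38.8 EPM and no control event. It was at least 2.73-fold higher against the floor over the pooled controls, with an exact lower limit of 2.22. In both windows the QKI-5 libraries lay above all controls. They took 18.7, 18.0 and 16.3% of the gene's QKI-5 events on 8.11% of its length, and the first of them was the highest of the 25 windows of the gene. The uncalled window nearest the threshold, from 19400001, held 255, 30 and 93 events and no control event, at least 2.14-fold higher against the pooled floor (adjusted p = 0.0780 by edgeR).

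The higher windows of EYA4 began 157.5 and 207.5 kb into the gene. The window from 133720001 held 70.4, 50.4 and 57.8 EPM and 1 control event, a pooled ratio of 13.4 (2.40 to 529). The window from 133770001, the highest of the gene, held 142, 119 and 114 EPM, with 29.0, 0 and 33.5 EPM in controls 1, 2 and 3. Its log2 fold change was 2.96 (SE 0.73) and its pooled ratio 5.48 (2.34 to 16.9). The uncalled window nearest the threshold, from 133600001, held 28.0, 25.7 and 22.2 EPM and no control event (adjusted p = 0.0914 by edgeR). Outside the pair, EYA4 held 556 ± 66.7 EPM with the antibody and 497 ± 68.8 EPM without it (SD, n = 3), ranges that overlap. Outside their own pairs, the groups did not overlap in PLEKHA5 (423 ± 44.2 against 245 ± 79.3 EPM) or ST7 (501 ± 63.0 against 283 ± 65.7 EPM). They overlapped in G2E3 (207 ± 41.6 against 104 ± 89.8 EPM).

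In G2E3 the higher windows stood near the start and at the end of the gene. The window from 31030001 held 40.8, 35.5 and 36.0 EPM and no control event, at least 2.70-fold higher against the pooled floor. The last window, from 31080001, held 159, 158 and 145 EPM, with 29.0, 72.3 and 67.1 EPM in controls 1, 2 and 3, and a log2 fold change of 2.40 (SE 0.64). The groups did not overlap in either. The first of the pair ranked 5 of 7 windows by QKI-5 EPM. The window from 31060001, second by level, held 96.1, 65.8 and 100 EPM but was not called (adjusted p = 0.0955 by edgeR), with 100.6 EPM from 3 events in control replicate 3.

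The ST7 pair lay side by side in the first 40 kb of the gene. The window from 116610001 held 98.6, 105 and 57.1 EPM, and control replicate 1 alone had events there, 3 of them. The window from 116620001 held 89.8, 110 and 75.1 EPM, with 21.8, 0 and 33.5 EPM in controls. The pooled ratios were 6.27 (2.14 to 30.5) and 4.70 (1.83 to 17.3), and the QKI-5 libraries lay above every control in both windows. The window at the gene start, from 116590001, held 70.0, 49.9 and 47.8 EPM with 2 control events and fell just outside the threshold.

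The higher windows of YTHDF3 held most of its events but also covered much of its length. The window from 64100001 held 220 EPM in replicate 1, 159 in replicate 2 and 249 in replicate 3, with 43.5, 72.3 and 168 EPM in the controls. The window from 64110001 held 149, 111 and 154 EPM, with 14.5, 24.1 and 168 EPM in controls. In EPM, control replicate 3 exceeded QKI-5 replicate 2 in both, and in the second it exceeded all 3. The groups therefore overlapped in EPM, unlike in the other 8 windows. EPM rests on library totals alone. The fit also applied TMM scaling factors, 1.98 for control replicate 3 and 0.719 for QKI-5 replicate 2, so its fold changes are on another scale. The pair held 84.6, 81.3 and 85.2% of the gene's QKI-5 events on 45.2% of its length. The mean share was 48.3% on 31.6% of the length in G2E3, 26.1% on 7.23% in ST7 and 24.9% on 6.88% in EYA4. In YTHDF3 controls the shares were 36.4% (interval 17.2 to 59.3), 36.4% (10.9 to 69.2) and 90.9% (58.7 to 99.8), so the interval of the third control held the QKI-5 values. Outside the pair the QKI-5 mean was lower than the control mean, at 66.3 ± 3.97 against 101 ± 67.6 EPM (SD, n = 3), within the spread of the controls. The uncalled window of the smallest p, from 64080001, was lower in QKI-5 libraries, with 17.8, 16.3 and 19.4 EPM against 29.0, 96.4 and 0 EPM (log2 fold change -0.53, adjusted p = 0.732 by edgeR).

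**Figure D3:**
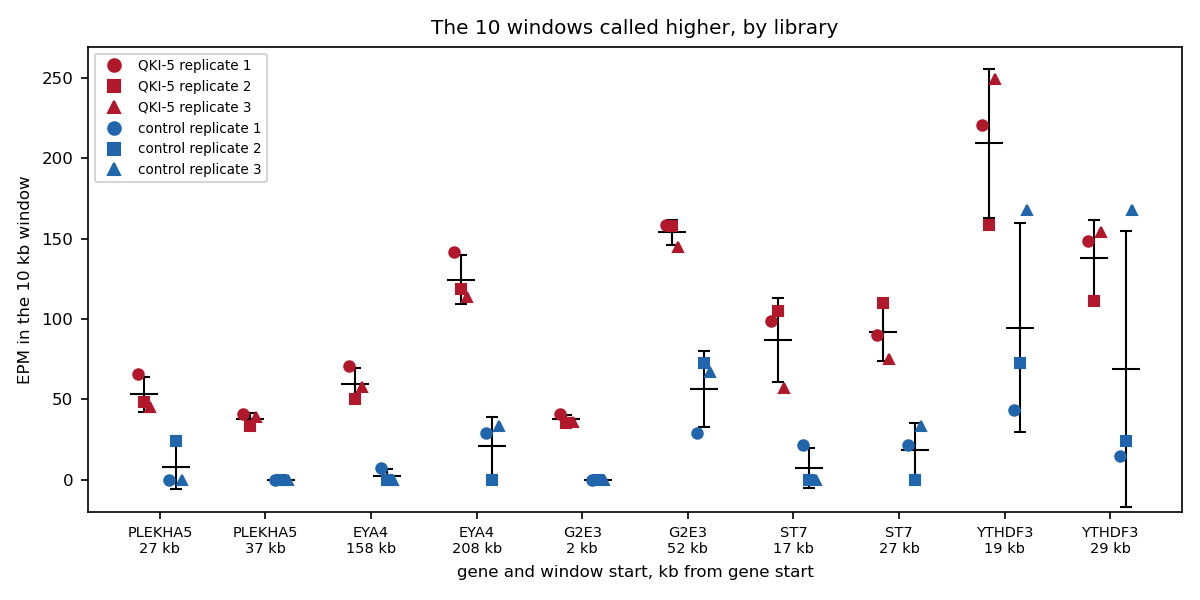
EPM in each of the 10 higher windows (vertical axis), named by gene and by the start of the window in kb from the gene start, for each library (points) with the mean and SD (bars). The QKI-5 points lie above all control points in 8 windows and overlap with control replicate 3 in both YTHDF3 windows.

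Which windows were called depended on the grid and on single libraries. With the windows shifted by 5 kb, 4 were higher, 1 each in PLEKHA5, EYA4, G2E3 and ST7 and none in YTHDF3, so no gene kept a pair, where 0.521% of all windows were higher. Windows of 20 kb gave 1 in EYA4 and 1 in YTHDF3 (0.288% of all). Windows of 5 kb gave 19, with 2 to 5 in each gene (5.98% of all). The DESeq2 Wald test also called 10 (1.44% of all), 8 of them among the original 10. With library totals in place of TMM factors no window of these genes was called, and the split over all windows became 23 higher and 58 lower from 226 and 32. That scaling lowered the median log2 fold change of all windows from 0.78 to 0.22 and that of the 5 genes from 1.30 to 0.74. Without control replicate 2 none was called (0.0917% of all). Without QKI-5 replicate 1, 2 or 3 there were 0, 3 and 3 among the 6, 6 and 7 windows still tested. Over all windows tested in those fits, 3.14, 10.7 and 7.36% were higher.

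Along the genes, the QKI-5 events followed several shapes, each shared by the 3 replicates. In ST7 the first of 3 equal parts of the gene held 69.5, 72.5 and 67.2% of events and the last 11.6, 11.5 and 13.1%. PLEKHA5 also fell along its length, from 56.4, 57.9 and 53.8% in the first part to 16.6, 17.0 and 17.2% in the last. EYA4 was even by these parts only, with 33.1, 38.0 and 35.0% in the first part and 31.8, 30.99 and 30.9% in the last. Its last part contains the higher window from 133770001. The windows before that one had QKI-5 means of 10.1 to 59.5 EPM. Those after it, from 133780001 to 133840001, had lower means of 5.33 to 13.2 EPM. The window from 133850001, which runs past the gene end, had 32.9 EPM. G2E3 leaned to its end, with 44.0, 51.4 and 40.9% in the last part, and YTHDF3 held 53.8, 50.6 and 55.3% in its middle part and 7.27, 9.70 and 6.58% in the first. In controls 1, 2 and 3, with 10 to 35 events each, the first part of ST7 held 74.3, 64.3 and 50.0% of events. The first part held 51.1, 36.4 and 0% in PLEKHA5 controls and 43.1, 44.4 and 16.7% in EYA4 controls. In G2E3 controls the last part held 37.5, 75 and 37.5%, and in YTHDF3 controls the middle part held 45.5% in each. The controls of these other genes held 4 to 72 events per library.

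Most of each gene was crosslinked at a low level. Of the 1 kb bins, 67.6% in PLEKHA5, 75.6% in EYA4, 90.2% in G2E3, 65.3% in ST7 and 86.7% in YTHDF3 held an event in all 3 QKI-5 libraries. By the mean over replicates, 50% of the events lay in 2 of 45 bins in YTHDF3 and 6 of 61 in G2E3, but in 30 of 277 in ST7, 41 of 247 in PLEKHA5 and 46 of 291 in EYA4. The strongest bin held 31.7% of the gene's events in YTHDF3, 16.5% in G2E3, 8.76% in ST7, 8.66% in EYA4 and 3.58% in PLEKHA5. Across bins, the log2 EPM of replicates correlated at r = 0.82 to 0.93 in YTHDF3, 0.83 to 0.87 in G2E3, 0.70 to 0.75 in ST7, 0.66 to 0.73 in EYA4 and 0.62 to 0.75 in PLEKHA5. These are descriptions over bins of 1 gene, which are not independent and share the depth of their libraries.

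**Figure D4:**
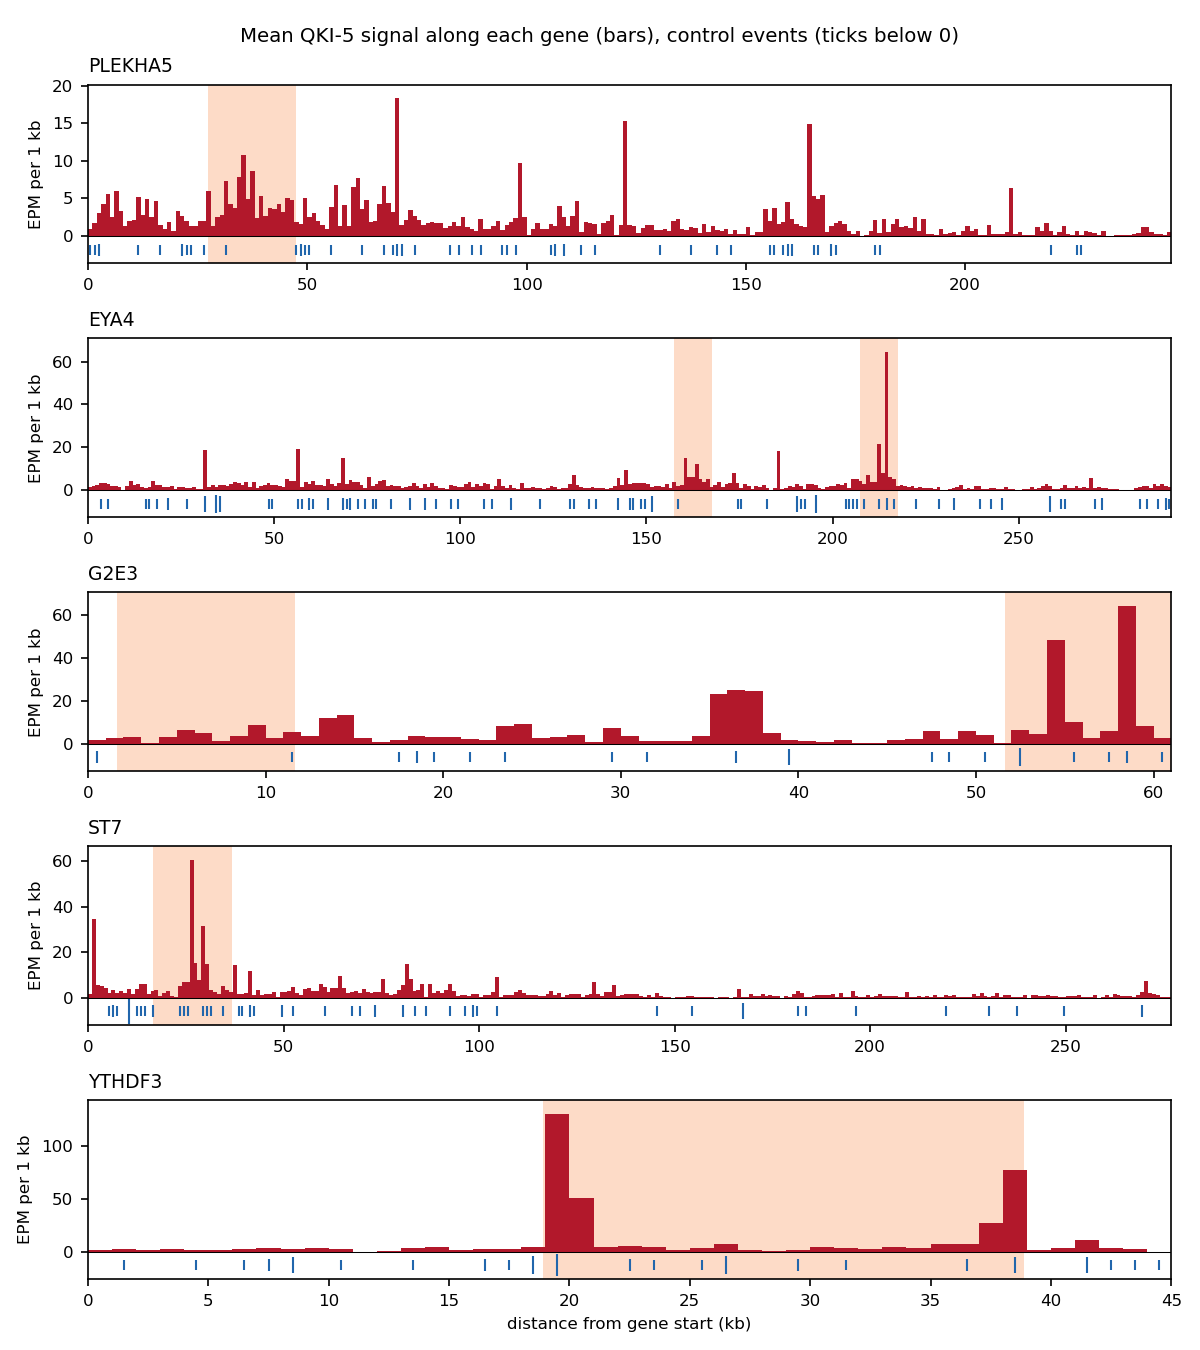
Mean EPM of the 3 QKI-5 libraries in 1 kb bins (bars, vertical axis, scaled by gene) by distance from the gene start in kb, with the higher windows shaded and bins holding control events marked by ticks below 0, longer for more events. YTHDF3 and G2E3 show a few tall bins, ST7 falls away from its start, and no bin of PLEKHA5 dominates.

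Shared peaks were defined as 31 nt stretches with at least 10 events in each QKI-5 library, ranked by the lowest of the 3 EPM values. There were 35: 11 in YTHDF3, 7 each in EYA4, G2E3 and ST7, and 3 in PLEKHA5. Without QKI-5 replicate 2 there were 23 in YTHDF3, 14 in G2E3, 12 in EYA4 and 7 in PLEKHA5. Without replicate 3 there were 17 in ST7 and 5 in PLEKHA5. They held a mean of 47.2% of the QKI-5 events of YTHDF3, 26.9% of those of G2E3, 10.1% of ST7, 9.88% of EYA4 and 3.98% of PLEKHA5, on 0.771% of the length or less. The higher windows contained 10 of the 11 peaks of YTHDF3, 5 of 7 in ST7, 4 of 7 in EYA4 and in G2E3, and none of the 3 in PLEKHA5. Controls had no event in 29 of the 35. Only 12 of the 35 lay above the 14.3 EPM floor of the pooled controls, so an equal control level at the others would lie under the floor.

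The strongest peaks of YTHDF3 lay beside each other about 19.5 kb into the gene. At chr8:64100670-64100700 QKI-5 replicates 1, 2 and 3 had 235, 63 and 109 events (32.3, 29.4 and 37.7 EPM) and the controls none, at least 2.30-fold higher against the pooled floor. At chr8:64100624-64100654 there were 379, 59 and 67 events (52.0, 27.5 and 23.2 EPM) and 3 control events, a pooled ratio of 2.86 (interval 0.973 to 13.9). These belong to a run of 6 peaks within 997 nt that held 37.7 ± 2.22% of the gene's QKI-5 events (SD, n = 3). A second run, of 3 peaks within 379 nt from 64119107, held 15.7 ± 1.66%, and each run falls in a different window of the pair. It contains the third peak, at chr8:64119207-64119237, with 32.0, 21.0 and 30.5 EPM and no control event, at least 2.07-fold higher against the pooled floor.

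G2E3 had its strongest peak 2.26 kb before the gene end, at chr14:31086955-31086985. It held 305, 156 and 75 events, or 41.9, 72.8 and 26.0 EPM, with 1 control event. QKI-5 replicate 2 was the highest there, with 55 of its 156 events at 1 nucleotide, against 35 of 305 in replicate 1 and 15 of 75 in replicate 3. The peak took 9.68, 20.7 and 6.36% of the gene's events in replicates 1, 2 and 3. Another peak, at chr14:31064709-31064739, gave closer values of 12.8, 12.6 and 15.9 EPM, lay outside the higher windows and held 1 control event, a pooled ratio of 2.82 (0.499 to 112). The third, at chr14:31063918-31063948, lies in the same uncalled window, with 16.5, 11.7 and 13.5 EPM and no control event.

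In EYA4 the strongest peak, at chr6:133776659-133776689, held 165, 55 and 48 events, or 22.7, 25.7 and 16.6 EPM, and 1 control event, a pooled ratio of 4.55 (0.810 to 180). It closed a run of 4 peaks within 162 nt that held 5.92 ± 1.26% of the gene's events. The next peak, at chr6:133594049-133594079, had the lowest pooled ratio of the 5 named peaks that held control events. It had 73, 30 and 52 events with the antibody and 1 event in each control, a pooled ratio of 0.878 (0.295 to 4.30). The window around it had a pooled ratio of 0.639 (0.343 to 1.34) on library totals. With TMM factors the log2 fold change of that window was -0.07 (adjusted p = 0.969 by edgeR). The third, at chr6:133618698-133618728, held 8.10, 8.40 and 8.65 EPM, values that hardly differed between replicates.

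ST7 had its strongest peak 1.67 kb into the gene, at chr7:116594963-116594993, with 30.3, 15.9 and 13.2 EPM and no control event (at least 1.66-fold against the pooled floor). It lies in the window that just missed the threshold. The next peaks, at chr7:116619650-116619680 and chr7:116622597-116622627, lie one in each higher window. The former held 12.9, 12.6 and 9.69 EPM and the latter 13.6, 6.53 and 11.8 EPM, both under the pooled control floor on the pooled QKI-5 level.

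PLEKHA5 had weak peaks that lay away from its higher windows. The strongest, at chr12:19447440-19447470, held 13.3, 6.07 and 6.23 EPM. The others, at chr12:19353315-19353345 and chr12:19353422-19353452, held 5.49, 6.53 and 3.46 EPM and 9.61, 7.47 and 3.46 EPM. No control event fell in any of these, and all were below the pooled floor. The windows that contain them had log2 fold changes of 0.98 and 1.27 and were not called (adjusted p = 0.464 and 0.34 by edgeR), with 7 and 6 control events.

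**Figure D5:**
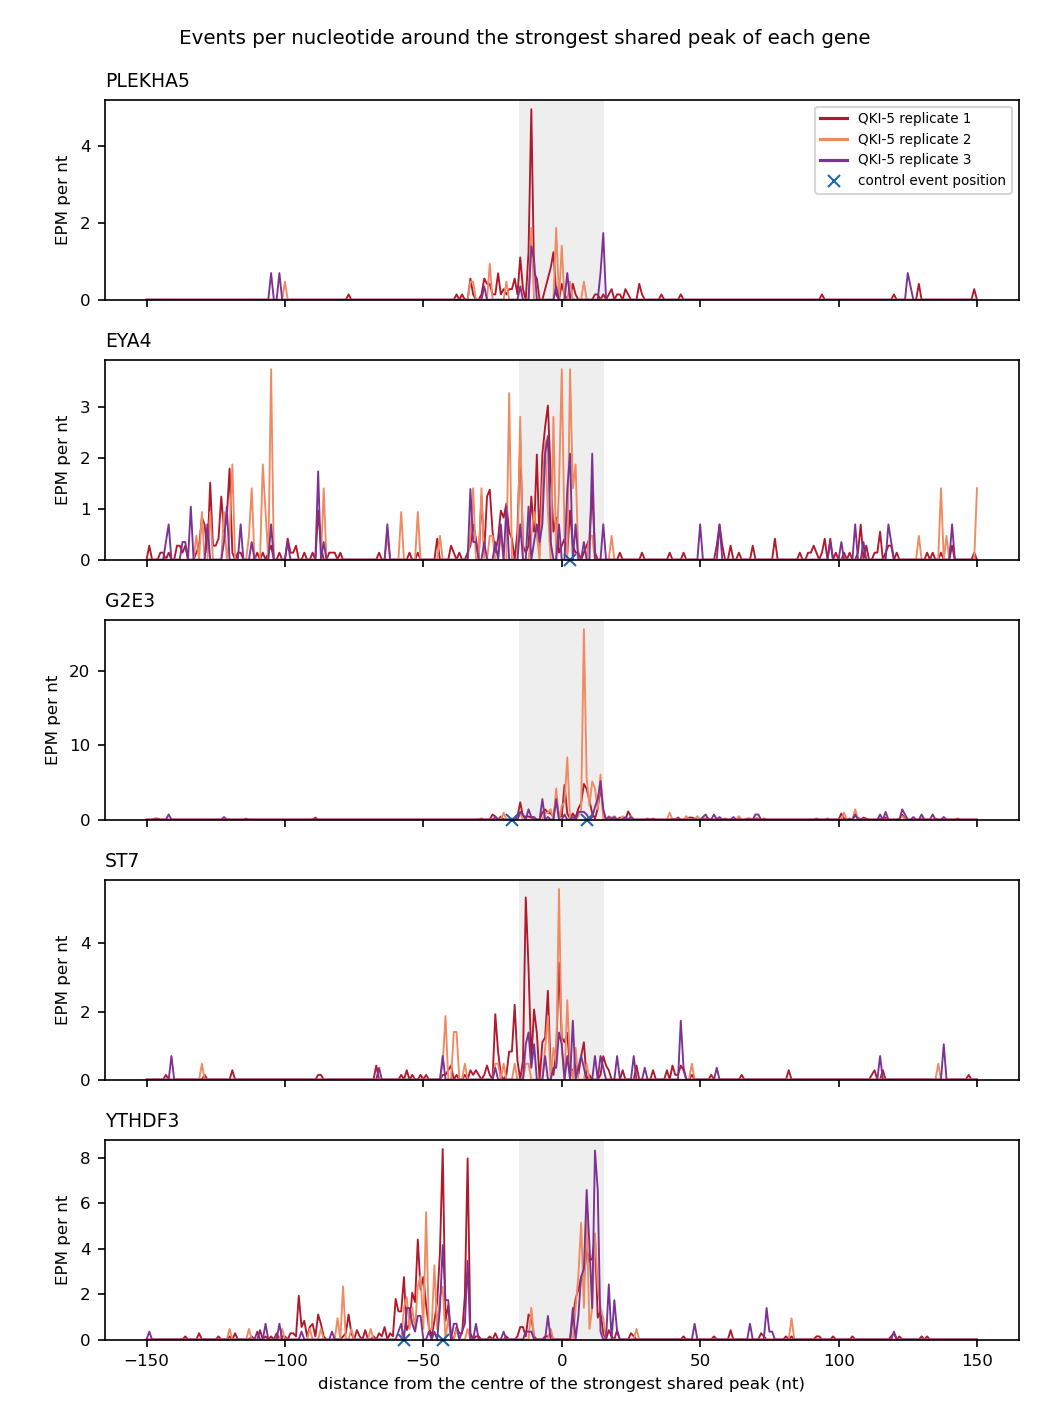
EPM per nucleotide (vertical axis, scaled by gene) within 150 nt of the centre of the strongest shared peak (shaded, 31 nt) in the 3 QKI-5 libraries (lines), with positions of control events as crosses on the axis. The peak was chosen for events in all 3 replicates, so their shared rise there is by choice. In no gene was the most hit nucleotide of the peak the same in all 3. G2E3 shows the tall single nucleotide of QKI-5 replicate 2.

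The higher windows ranged from diffuse to focal. The most crosslinked 31 nt of each window was chosen in QKI-5 replicate 1 and its share of the window's events measured in replicates 2 and 3. The mean share was 32.0% in the last window of G2E3, 19.3 and 13.2% in the YTHDF3 windows from 64110001 and 64100001, and 13.5% in the EYA4 window from 133770001. In the ST7 windows it was 10.9 and 9.72%. It was 6.35 and 2.98% in the PLEKHA5 windows, 5.50% in the EYA4 window from 133720001 and 5.04% in the first window of G2E3. The median was 10.3% over these 10 windows, 12.0% over all 226 higher windows 5.42% over the 76 tested windows of the genes and 4.67% over all tested windows. Uncalled windows of the genes reached higher shares, and those named here were chosen after their values were seen. The share was 54.1% in the EYA4 window from 133590001, 38.4% in the PLEKHA5 window from 19490001, 28.5% in the ST7 window from 116590001 and 24.5% in the YTHDF3 window from 64120001. The 4 lowest of the 10 values belong to windows with 0 or 1 control event. These windows also held the fewest QKI-5 events, 477 to 788, against 1107 to 2666 in the others of the 10.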

How the data were processed

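Per the labels, iCLIP was made from BEAS2B cells in 3 QKI-5 and 3 control libraries. The deposited files hold whole-number counts of crosslink events per position and strand, 1 library each, not normalized by the authors. The submitters' processing notes name cutadapt, Bowtie and the build hg19, with no versions. The sources used here do not give how PCR copies and multiply aligned reads were handled. The members, lists and rules were chosen with earlier results of these data known.

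Events in 10 kb windows of each strand were added up and tested with edgeR 4.0.16 (R 4.3.3). The fit used TMM factors, filterByExpr, a quasi-likelihood F test and Benjamini-Hochberg over all windows, at an adjusted p under 0.05. It was tried on simulated counts with a single fixed spread, which cannot vouch for calls that rest on few control events. Each SE was back-calculated as the absolute log2 fold change divided by the square root of the F statistic. Same-numbered libraries did not deviate together in every pair, so the replicate number was used only in an alternative. Gene windows, 1 kb bins, peaks and shares were computed with Python 3.11.15, numpy 2.4.6 and pandas 2.3.3. Bin correlations used log2 of EPM plus 0.5. Named were each higher window, the uncalled window with the smallest p and the first 3 peaks per gene. Alternatives changed scaling, test, filter, windows, libraries, position counting and peak settings. The share in the most crosslinked stretch and the joining of peaks under 500 nt apart were added after the data were seen. No hg19 genome or annotation was used, so exons, introns, motifs, related genes and cell type markers were not examined and no sequence is printed. RefSeq on GRCh38.p14 gave gene names only.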

Additional observations from a re-analysis of the deposited data

How the results depend on the processing

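The number of higher windows in the 5 genes, 10 in all, was 0 with library totals, 1 with DESeq2 size factors in edgeR, 6 without a filter on low counts, 0 with distinct positions, 4 with windows shifted by 5 kb, 2 with 20 kb windows and 19 with 5 kb windows. Over all tested windows, 226 were higher (0.754%). The count was 23 with library totals (0.0768%), 85 with DESeq2 size factors (0.284%) and 431 with the DESeq2 1.42.0 Wald test (1.44%). Without a filter on low counts it was 159 (0.091%), with distinct positions 26 (0.126%) and with windows shifted by 5 kb 156 (0.521%). Windows of 20 kb gave 76 (0.288%) and windows of 5 kb 1467 (5.98%). With 1 library left out, the counts in the genes ranged from 0 to 10, and the number of windows tested changed as well. Over all they ranged from 28 of 892 tested windows (3.14%) without QKI-5 replicate 1 to 831 of 52140 (1.59%) without control replicate 1. A replicate block in edgeR left 0 higher windows in the genes and 0 over all, at a smallest adjusted p of 0.2, with 2195 windows at an unadjusted p under 0.05. Same-numbered libraries correlated at 0.001, 0.105 and 0.072 in their deviations, and not every library correlated best with its own number. The DESeq2 Wald test kept 8 of the 10 windows and gave no adjusted p for the other 2, those without control events. No higher window changed direction under any alternative that gave it a value. The windows were chosen as higher in these same counts, so this is no independent support. Without 1 QKI-5 library only 5 or 6 of the 10 were given a value. The whole-gene ratio of YTHDF3 fell to 0.936 with distinct positions, the only gene ratio of the 5 to change side of 1. The shallow controls limit every ratio. One event is 7.25 EPM in control 1, 24.1 in control 2 and 33.5 in control 3. Peak counts moved by over 1.5 times in each gene with the event minimum and with 1 QKI-5 library left out. At least 5 events gave 9 to 22 peaks per gene and at least 20 gave 0 to 5. With 1 library left out they ranged from 3 to 7 in PLEKHA5, 7 to 12 in EYA4, 7 to 14 in G2E3, 7 to 17 in ST7 and 11 to 23 in YTHDF3.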
